A study of Mus musculus with 6 samples.

Results

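Bone morphogenetic proteins (BMPs) are secreted dimers of the TGF-beta superfamily, and their genes Bmp2, Bmp3, Bmp4, Bmp5, Bmp6 and Bmp7 were followed in stromal cells sorted from mouse colon. The members were taken by gene symbol, and 6 of 6 were found among the 24346 genes of each table. RNA sequencing was done on 6 libraries, named here by the numbers in their labels: 3 from mice with the genotype Pdgfra cre; Il10ra flox/flox (Pdgfra-cre 13, 23 and 25) and 3 from mice with Il10ra flox/flox alone (control 8, 9 and 43). All mice carried floxed alleles of Il10ra, which encodes the receptor chain that binds interleukin-10, were 12 weeks old and had been given 1% dextran sulfate sodium (DSS), which injures the colonic epithelium and causes colitis. Live cells positive for Podoplanin and negative for CD45, CD31 and EpCAM were sorted. The cre recombinase is named for Pdgfra, a fibroblast gene, so cells of the sort that do not express Pdgfra may not recombine, and no mouse without DSS was analysed here. The comparison asked how the level of each ligand differed between the genotypes.

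BMP ligands bind type I and type II serine/threonine kinase receptors, which phosphorylate SMAD1, SMAD5 and SMAD9. These join SMAD4 and switch on genes such as those of the Id family. In the intestine, fibroblasts under the surface epithelium and near the tops of the crypts secrete BMPs, which favor differentiation of the epithelium. Fibroblasts and muscle near the crypt base secrete antagonists that bind the ligands and protect the stem cells. BMP2 and BMP4 form a close pair by sequence, BMP5, BMP6 and BMP7 form another subgroup, and BMP3 is known mainly as an inhibitor of the other BMPs.

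Library-wide values set the limits of the comparison. Il10ra was listed at 0 in all 3 Pdgfra-cre libraries and in control libraries 8 and 9, and had 0.418 FPKM in control library 43, so the deletion could not be checked. FPKM counts fragments per kilobase of transcript, scaled to the depth of the library, so values of different genes may be compared on it. How the submitters scaled the libraries against each other is not given. The sources used here do not give read totals. Between 0.06 and 0.2 FPKM times kilobase, genes with a single transcript piled up most at 0.110 to 0.126, depending on the library. This peak was taken as the rough worth of 1 fragment, which was not tested. On that scale, the lowest ligand value, that of Bmp3 in Pdgfra-cre library 25, rested on about 183 fragments and the highest, that of Bmp4 in control library 43, on about 6393. Pdgfra-cre library 23 stood apart: its mean Pearson correlation with the other libraries over all genes was 0.976, against 0.981 to 0.985 for the other 5. It also had the highest summed FPKM of 7 neutrophil markers, led by Lcn2 and S100a8: 352 against 37.3 and 84.4 in the other Pdgfra-cre libraries and 5.41 to 70.8 in controls. The summed FPKM of 10 type I interferon response genes, Irf7 among them, was 577 there, 190 and 272 in the other Pdgfra-cre libraries and 119 to 150 in controls. Nothing in the labels says whether the mice shared a litter or a processing day. The p-values set the difference between groups against the spread within groups, for these 6 libraries only.

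The ligand genes lie apart in the genome (coordinates from GENCODE M21, build mm10). Bmp2 lies on chromosome 2 (133552159 to 133562885, plus strand), and Bmp7 lies far along the same chromosome (172868012 to 172940321, minus strand). Bmp3 lies on chromosome 5 (98854415 to 98884396, plus strand) and Bmp4 on chromosome 14 (46383520 to 46390669, minus strand). Bmp5 lies on chromosome 9 (75775364 to 75900310, plus strand) and Bmp6 on chromosome 13 (38345107 to 38500302, plus strand). The values are given per gene, so transcripts of the same gene are not told apart.

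Promoter windows of 250 bases before to 50 bases after the RefSeq transcription start (build GRCm38.p6, the sequence behind mm10) were matched for 3 of the 6 ligands, Bmp4, Bmp5 and Bmp6. All windows found are shown, whatever the level of the gene. Bmp4 and Bmp5 had lower values in every Pdgfra-cre library than in any control, whereas Bmp6 did not. Bmp7, which was also lower in this way, had no window to show. The capitals mark GC boxes (GGGCGG, read on either strand).
Bmp4, chr14:46390620-46390919, minus strand: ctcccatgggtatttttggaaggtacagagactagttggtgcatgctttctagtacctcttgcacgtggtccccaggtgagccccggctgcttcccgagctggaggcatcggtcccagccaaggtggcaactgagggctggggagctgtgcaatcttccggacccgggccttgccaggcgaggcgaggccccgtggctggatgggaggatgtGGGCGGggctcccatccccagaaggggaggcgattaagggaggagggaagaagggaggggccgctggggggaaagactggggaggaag
Bmp5, chr9:75775115-75775414, plus strand: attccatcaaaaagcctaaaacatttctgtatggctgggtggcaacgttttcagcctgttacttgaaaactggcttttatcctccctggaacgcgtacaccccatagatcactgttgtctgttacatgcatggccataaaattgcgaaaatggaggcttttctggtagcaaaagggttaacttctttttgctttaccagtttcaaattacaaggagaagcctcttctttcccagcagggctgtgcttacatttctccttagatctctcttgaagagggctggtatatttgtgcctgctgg
Bmp6, chr13:38345466-38345765, plus strand: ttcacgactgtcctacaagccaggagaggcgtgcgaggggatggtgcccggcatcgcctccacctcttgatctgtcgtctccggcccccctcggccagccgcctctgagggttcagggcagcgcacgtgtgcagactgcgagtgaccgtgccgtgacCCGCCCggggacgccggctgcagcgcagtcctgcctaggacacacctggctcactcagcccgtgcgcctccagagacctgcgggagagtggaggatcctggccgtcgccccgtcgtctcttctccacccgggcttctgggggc
By the GENCODE coordinates, the Bmp6 window lies wholly inside the gene, which starts at 38345107. The Bmp4 and Bmp5 windows span the start of their genes. The 3 windows differ in base composition. The G and C content was 64.0% for Bmp4, 43.3% for Bmp5 and 69.3% for Bmp6, against a median of 52.7% over 32851 promoter windows. The window of Bmp5 held 4 CpG dinucleotides, that of Bmp4 12 and that of Bmp6 27, against a median of 7. The windows of Bmp4 and Bmp6 each held 1 GC box, which 35.7% of all windows hold in at least 1 copy, and that of Bmp5 held none. The following letters were sought on both strands and occurred in none of the 3 windows. They were the interferon-stimulated response element core (in 3.44% of all windows), the STAT-binding GAS element TTCNNNGAA (8.30%), the hedgehog-effector GLI site GACCACCCA (0.253%), the forkhead site GTAAACA (3.65%), the TATA box TATAAA (13.6%) and the E-box CAGCTG (16.3%). This says only that these letters are not in these windows.

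All 6 ligands had values above 0 in all 6 libraries, and their levels differed widely between the genes. Bmp4 was the most abundant of them in every library, with 158 to 341 FPKM, and its mean over all libraries lay above that of 98.3% of all genes. Bmp3 was the lowest in every library, with 3.05 to 7.56 FPKM. Between these, the order differed between libraries. Bmp5 took second place in 5 libraries and came behind Bmp6 in Pdgfra-cre library 23. By group means the Pdgfra-cre order was Bmp4, Bmp6, Bmp5, Bmp7, Bmp2 and Bmp3. The Bmp6 and Bmp5 values overlapped there, and so did those of Bmp7 and Bmp2. In controls the order was Bmp4, Bmp5, Bmp6, Bmp7, Bmp2 and Bmp3, and the values of Bmp6, Bmp7 and Bmp2 overlapped. The means given below are each followed by the SD over 3 libraries.

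**Figure D1:**
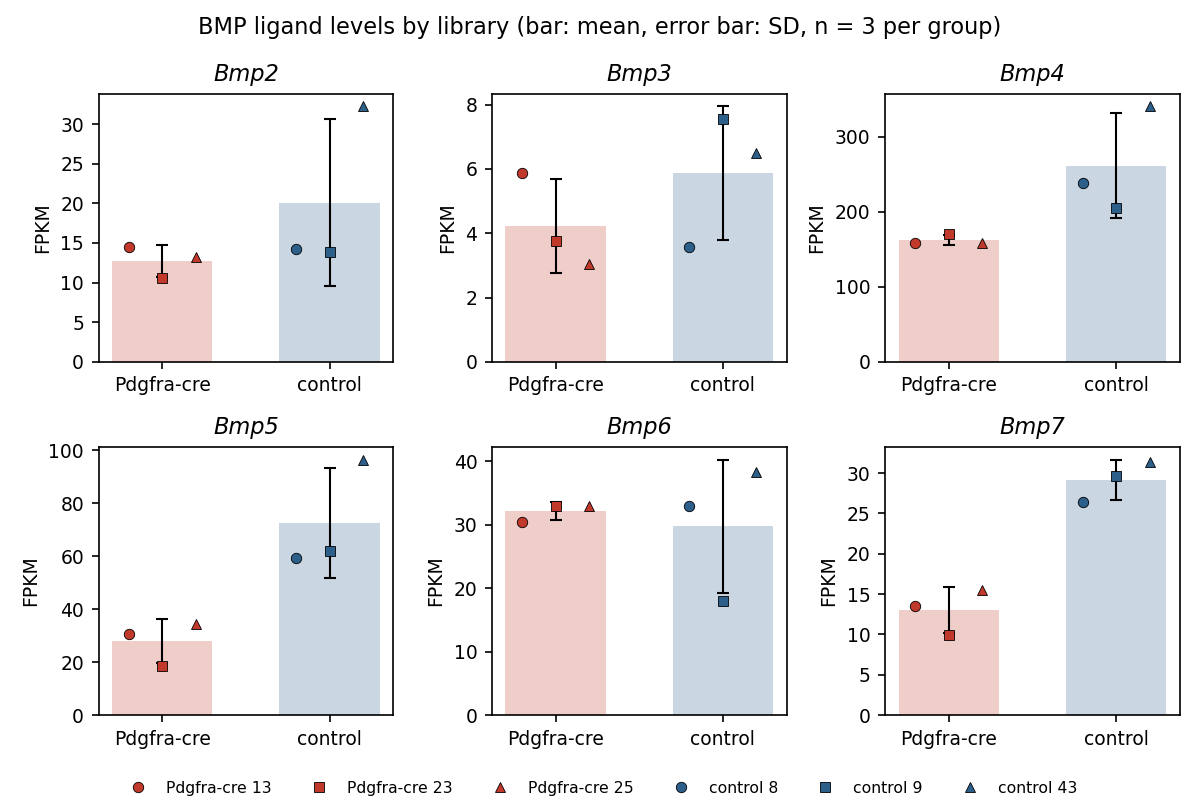
FPKM (vertical axis, linear, from 0) of each BMP ligand in the 3 Pdgfra-cre and 3 control libraries; bars are means, error bars SD, and each symbol is 1 library. Bmp4, Bmp5 and Bmp7 have all Pdgfra-cre points below all control points, while Bmp2, Bmp3 and Bmp6 overlap.

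Bmp4, which fibroblasts of the gut secrete in response to hedgehog signals from the epithelium, was lower in Pdgfra-cre cells. It had 158, 171 and 158 FPKM in Pdgfra-cre libraries 13, 23 and 25, against 239, 206 and 341 FPKM in control libraries 8, 9 and 43. The groups did not overlap, the Pdgfra-cre values lay close together, and control library 43 was the highest of all. The means were 162 ± 7.12 FPKM in Pdgfra-cre and 262 ± 70.4 FPKM in controls (SD, n = 3 each), a ratio of 0.620. The log2 fold change was -0.65 ± 0.17 (SE) on the log2(FPKM + 1) scale, and it did not pass limma's test across all genes (adjusted p = 0.211). Without control library 43 it was -0.45.

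Bmp2, the closest relative of Bmp4, showed no separation of the groups. It had 14.5, 10.5 and 13.3 FPKM in Pdgfra-cre libraries 13, 23 and 25, against 14.2, 13.8 and 32.2 FPKM in control libraries 8, 9 and 43. Control libraries 8 and 9 lay within the Pdgfra-cre range, and control library 43 lay above all others. The means were 12.8 ± 2.04 FPKM in Pdgfra-cre and 20.1 ± 10.5 FPKM in controls (SD, n = 3 each). With a log2 fold change of -0.52 ± 0.30 (SE), Bmp2 was not called (limma, adjusted p = 0.591). It rested on control library 43, without which it was -0.14, while without control library 9 it was -0.72.

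Bmp5 had the largest fold change of the 6 ligands between the genotypes. The gene belongs to the subgroup of BMP5, BMP6 and BMP7, is the one disrupted in the short ear mutation of the mouse, and is a marker of subepithelial fibroblasts. It had 30.6, 18.6 and 34.3 FPKM in Pdgfra-cre libraries 13, 23 and 25, against 59.3, 61.9 and 96.4 FPKM in control libraries 8, 9 and 43. Every Pdgfra-cre value lay below every control value, with library 23 the lowest and control library 43 the highest. The means were 27.9 ± 8.23 FPKM in Pdgfra-cre and 72.6 ± 20.7 FPKM in controls (SD, n = 3 each), a ratio of 0.384. Its log2 fold change was -1.36 ± 0.25 (SE), with an unadjusted p that ranked 27 of 11429 genes tested, and it did not pass (limma, adjusted p = 0.156). Without Pdgfra-cre library 23 it was -1.10 and without control library 43 it was -1.14. The exons of Bmp5 share 1878 bases with Gm26903, an antisense transcript not analysed here, and reads of the pair cannot be told apart without strand.

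Bmp7, a ligand needed for kidney and eye development that subepithelial fibroblasts also make, was lower in each Pdgfra-cre library than in any control. It had 13.6, 9.94 and 15.6 FPKM in Pdgfra-cre libraries 13, 23 and 25, against 26.4, 29.6 and 31.4 FPKM in control libraries 8, 9 and 43. The groups were well apart: the lowest control value exceeded the highest Pdgfra-cre value by more than the SD of either group. The means were 13.02 ± 2.85 FPKM in Pdgfra-cre and 29.1 ± 2.54 FPKM in controls (SD, n = 3 each), a ratio of 0.447. Its log2 fold change was -1.12 ± 0.18 (SE), its unadjusted p ranked 15 of 11429, and it did not pass (limma, adjusted p = 0.108). It passed narrowly when Pdgfra-cre library 25 was left out (log2 fold change -1.25, limma adjusted p = 0.0463), a setting in which 0.166% of all genes passed as lower. Leaving out the other libraries gave fold changes between -1.19 and -0.95 and no call.

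Bmp6, a ligand known for inducing hepcidin in the liver and close to BMP5 and BMP7 in sequence, showed no separation of the groups. It had 30.4, 32.9 and 32.9 FPKM in Pdgfra-cre libraries 13, 23 and 25, against 33.0, 18 and 38.2 FPKM in control libraries 8, 9 and 43. Control library 9 was the lowest and control library 43 the highest, so the Pdgfra-cre values all lay inside the control range. The means were 32.1 ± 1.42 FPKM in Pdgfra-cre and 29.7 ± 10.5 FPKM in controls (SD, n = 3 each). Its log2 fold change was 0.17 ± 0.24 (SE; limma, adjusted p = 0.865), and without control library 9 it was -0.14. The last exon of Bmp6 shares 224 bases, 6.23% of its 3593-base transcript, with the end of Txndc5 on the other strand. The libraries did not keep the strand, and Txndc5 had 267 to 335 FPKM. At even coverage, its reads over the shared bases would amount to 16.7 to 20.9 FPKM if all were counted for Bmp6, which exceeds the Bmp6 value in control library 9. How many of them were so counted was not tested.

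Bmp3, whose product acts mainly against other BMPs, was scarce in all libraries. It had 5.87, 3.77 and 3.05 FPKM in Pdgfra-cre libraries 13, 23 and 25, against 3.56, 7.56 and 6.50 FPKM in control libraries 8, 9 and 43. The highest values were those of control libraries 9 and 43, and control library 8 lay among the Pdgfra-cre values. The means were 4.23 ± 1.46 FPKM in Pdgfra-cre and 5.88 ± 2.07 FPKM in controls (SD, n = 3 each). The log2 fold change was -0.38 ± 0.30 (SE; limma, adjusted p = 0.721), and it was -0.20 without control library 9 and -0.65 without control library 8.

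Of the 6 ligands, all of which passed the filter of at least 1 FPKM in at least 3 libraries, 0 passed an adjusted p of 0.05 in limma. The fold change was below 0 for 5 of them, against 49.7% of all genes, and above 0 for 1, against 50.3%. Over all 11429 genes tested 0 passed, which is 0% in either direction, and 1253 had an unadjusted p under 0.05. The unadjusted p was under 0.05 for 3 ligands, all lower in Pdgfra-cre (Bmp4, Bmp5 and Bmp7), against 5.49% of all genes in that direction. The groups did not overlap in the same 3 ligands, again all lower, against 8.29% of all genes. Without Pdgfra-cre library 23 the count was 3 (background 12.6%), and without control library 43 it was 3 (12.9%). The median log2 fold change of the 6 ligands was -0.59, against 0.0012 over all genes tested. In bulk samples such as these, fewer cells of a type and less RNA per cell cannot be told apart.

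**Figure D2:**
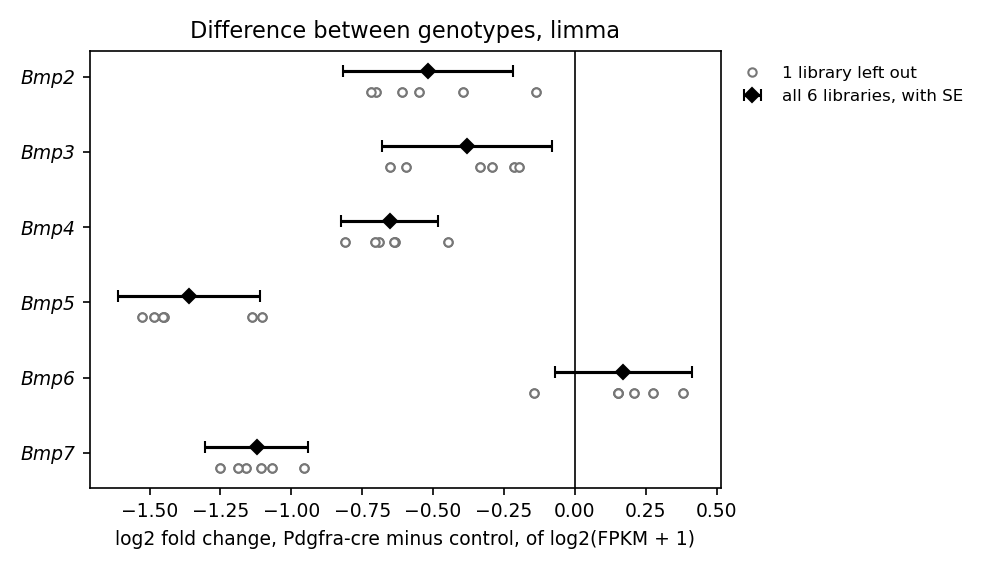
Log2 fold change (horizontal axis, Pdgfra-cre minus control, of log2(FPKM + 1)) of each ligand: diamonds with SE are from all 6 libraries, and open circles are the 6 values with 1 library left out. Bmp4, Bmp5 and Bmp7 stay below 0 throughout, from -1.53 to -0.45, and Bmp6 lies on both sides of 0.

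The ligands did not move as a block, and their mixture differed between the genotypes. The summed FPKM of the 6 ligands was 253, 246 and 257 in Pdgfra-cre libraries 13, 23 and 25, against 375, 337 and 546 in control libraries 8, 9 and 43. Every control sum was above every Pdgfra-cre sum, and the Pdgfra-cre sums lay within a narrow band. Bmp4 made up a similar share in both, 64.4 ± 4.22% in Pdgfra-cre and 62.4 ± 1.26% in controls (SD, n = 3 each). Bmp5 held 11.0 ± 3.05% in Pdgfra-cre and 17.3 ± 1.33% in controls, without overlap. Bmp6 held 12.7 ± 0.666% in Pdgfra-cre and 7.05 ± 1.72% in controls, also without overlap. The Bmp6 share was the higher one in Pdgfra-cre although its own level overlapped between groups, since shares of 1 sum depend on each other. Reads of Txndc5 that may have been counted for Bmp6 were not taken out, so the sums and shares depend on them. Bmp7 held 5.14 ± 1.02% in Pdgfra-cre and 7.20 ± 1.53% in controls, with overlap.

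**Figure D3:**
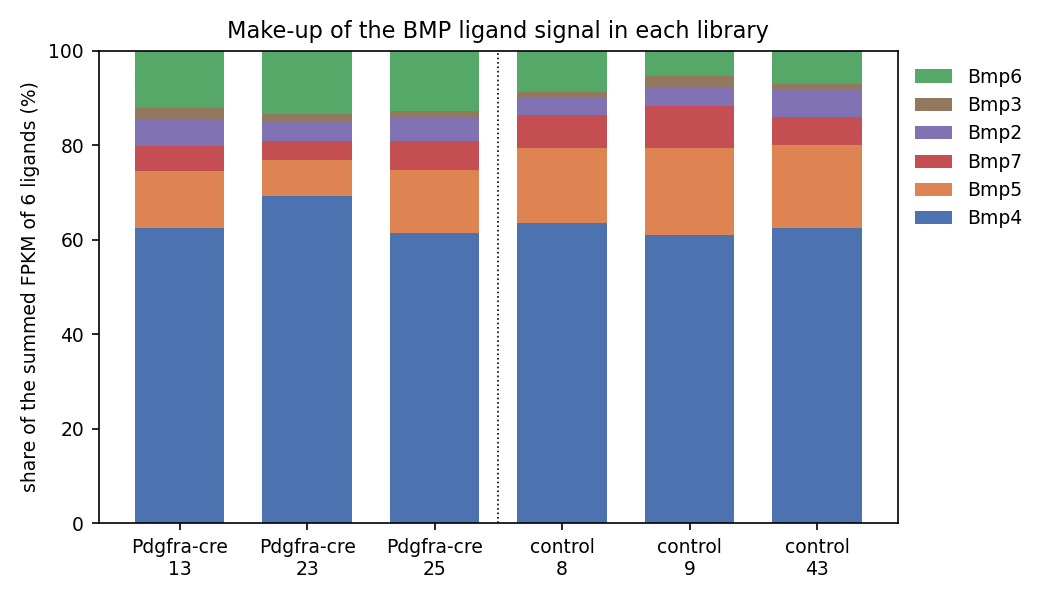
Share of each ligand (vertical axis, percent) in the summed FPKM of the 6 ligands, with 1 bar per library, Pdgfra-cre libraries left of the dotted line and controls right of it. The Bmp4 share is between 61.1% and 69.2% throughout, the Bmp5 share is smaller in Pdgfra-cre and the Bmp6 share is larger there. Bmp6 values may include reads of Txndc5.

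Ratios within a library, which a common scaling factor does not alter, showed which ligands kept step. Bmp5 over Bmp6 was 1.01, 0.565 and 1.04 in Pdgfra-cre libraries 13, 23 and 25, against 1.80, 3.44 and 2.52 in control libraries 8, 9 and 43. Bmp7 over Bmp6 was 0.445, 0.302 and 0.473 in Pdgfra-cre, against 0.801, 1.65 and 0.821 in controls. Neither ratio overlapped between the groups, and both were lower in Pdgfra-cre. Both rest on Bmp6 values that may hold Txndc5 reads. Less the most that Txndc5 could add, Bmp6 would be 10.2, 16.2 and 12.0 FPKM in Pdgfra-cre libraries 13, 23 and 25. In control libraries 8, 9 and 43 it would be 14.3, -1.45 and 21.4 FPKM, and the ratios were not tested on that scale. Bmp5 over Bmp7 overlapped, at 2.26, 1.87 and 2.21 in Pdgfra-cre and 2.25, 2.09 and 3.07 in controls. Bmp4 over Bmp5 was 5.16, 9.17 and 4.61 in Pdgfra-cre, against 4.02, 3.32 and 3.53 in controls, without overlap, so the Bmp5 values differed by more than those of Bmp4. The ratios were chosen after the levels were seen and are given as description.

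Profiles over the 6 libraries were compared by the root mean square difference between log2(FPKM + 1) values centred on each gene's mean. Of the 15 pairs of ligands, Bmp5 and Bmp7 were the closest (0.22), followed by Bmp2 and Bmp4 (0.25), and Bmp5 and Bmp6 were the farthest apart (0.85). Control library 43 held the highest value of 5 of the 6 ligands, Bmp3 being the exception, and Pdgfra-cre library 23 held the lowest value of 3 of them, Bmp2, Bmp5 and Bmp7.

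By the same measure, over 7880 genes with a mean of at least 5 FPKM, each ligand had neighbours of its own. These genes were picked by likeness to the ligand's values in the same libraries. That they share its separation of groups or its extreme library follows from that choice and is description only. The 3 genes most like Bmp7 were Syt13 (0.0979), Apoe (0.115) and Gja1 (0.120), and all 3 had groups that did not overlap. Apoe, a lipid carrier, had 334, 274 and 442 FPKM in Pdgfra-cre libraries 13, 23 and 25, against 805, 772 and 774 FPKM in control libraries 8, 9 and 43. Those most like Bmp5 were the heparan sulfate-cleaving enzyme gene Hpse (0.130), the actin-associated Pdlim3 (0.146) and Rerg (0.158). Those most like Bmp4 were Nexn, which encodes an actin-binding protein (0.0907), Zfp51 (0.101) and the matrix gene Ctgf (0.103). Those most like Bmp2 were the cyclooxygenase gene Ptgs1 (0.102), Gtf2h2 (0.126) and Arhgap42 (0.138), which were also highest in control library 43. Bmp6 was nearest to Podxl2 (0.0458), Mark3 (0.0878) and Siah1a (0.0897), which, like Bmp6, were lowest in control library 9. Bmp3 was nearest to Top1mt (0.158), Nkap (0.161) and Sco2 (0.168).

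Markers of the fibroblast types that make BMPs, and of muscle, also differed between the libraries. For fibroblasts with high PDGFRA, 14 of 15 tested markers, led by F3 and Pdgfra, had a log2 fold change below 0 and 5 had groups that did not overlap, all lower, with a median of -0.52. Their summed FPKM was 375 to 505 in Pdgfra-cre and 562 to 765 in controls, and none of the 15 was at 0 in all libraries. Of these, the tissue factor gene F3 had 146 ± 34.8 FPKM in Pdgfra-cre and 225 ± 41.8 FPKM in controls, and Pdgfra had 150 ± 26.9 and 188 ± 11.0 FPKM in the same order (SD, n = 3 each). For smooth muscle and myofibroblasts, 10 of 10 tested markers were below 0 and 10 had groups that did not overlap, with a median of -1.15 and sums of 330 to 758 FPKM in Pdgfra-cre against 1213 to 1299 FPKM in controls. Acta2, smooth muscle actin, had 146 ± 57.3 FPKM in Pdgfra-cre and 317 ± 30.8 FPKM in controls, and Myl9, a myosin light chain, had 239 ± 82.2 and 455 ± 32.4 FPKM in the same order. Markers of crypt-base fibroblasts with CD81 went the other way, with 12 of 12 above 0, of which 7 had groups that did not overlap, and a median of 0.54. Their sums, led by Ly6a and C3, were 7971 to 14253 FPKM in Pdgfra-cre, highest in library 23, and 4881 to 6970 FPKM in controls. The groups overlapped for Grem1 (log2 fold change 0.015), Sfrp1 (0.12), Ackr4 (0.30), Rspo3 (0.56) and Ly6c1 (0.83), which were named after their values were seen. Over all genes tested, 49.7% were below 0 and 50.3% above, and the groups did not overlap in 8.29% as lower and 8.07% as higher. No marker in these 3 lists passed the test over all genes. Grem1 is in the CD81 list and in that of antagonists.

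Expressed per 100 FPKM of Pdgfra in the same library, Bmp7 was 8.76, 8.25 and 8.97 in Pdgfra-cre libraries 13, 23 and 25, against 14.8, 15.9 and 15.7 in control libraries 8, 9 and 43. Bmp5 was 19.8, 15.4 and 19.8 in Pdgfra-cre, against 33.3, 33.3 and 48.2 in controls. Both stayed apart between the groups, and they did so too per 100 FPKM of the 15 summed PDGFRA-high markers, where Bmp7 was 2.65 to 3.14 in Pdgfra-cre and 4.10 to 4.70 in controls. Bmp4 overlapped on the Pdgfra scale, at 91.2 to 142 in Pdgfra-cre and 111 to 170 in controls. Per 100 FPKM of the 10 summed smooth muscle and myofibroblast markers, Bmp7 was 1.94, 3.01 and 2.05 in Pdgfra-cre, against 2.15, 2.44 and 2.42 in controls. Bmp5 was 4.39, 5.63 and 4.53 in Pdgfra-cre on that scale, against 4.83, 5.11 and 7.42 in controls. On the muscle scale both ligands overlapped between the groups. Bmp6, whose values may hold Txndc5 reads, overlapped on the Pdgfra scale but was higher in Pdgfra-cre without overlap on both marker sums. Per 100 FPKM it was 6.03 to 8.78 in Pdgfra-cre and 2.83 to 5.86 in controls for the PDGFRA-high sum. For the muscle sum it was 4.34 to 9.97 and 1.48 to 2.94 in the same order. Bmp2 and Bmp3 overlapped on all of these scales. The part of changed cell proportions in the ligand values was not tested.

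Markers of other cell types ranged from near 0, for endothelium, to the neutrophil sum of 352 FPKM in Pdgfra-cre library 23, where the smooth muscle and myofibroblast sum was 330 FPKM. The 8 endothelial markers summed to 0.968 to 2.21 FPKM in Pdgfra-cre and 1.88 to 3.55 in controls, with 1 of 8 at 0 in all libraries, and Pecam1 was at most 0.856 FPKM. The 10 epithelial markers summed to 10.7 to 47.5 FPKM in Pdgfra-cre and 5.61 to 23.9 in controls, and Epcam was at most 1.11 FPKM. Of the leading epithelial markers, the keratin Krt19 was highest in Pdgfra-cre library 23 (15.4 FPKM) and Lgals4 in control library 9 (8.23 FPKM). The 7 mesothelial markers summed to 14.0 to 68.2 FPKM in Pdgfra-cre and 2.69 to 8.62 in controls, again highest in library 23, and were led by Msln and Upk1b. The 7 pericyte markers, led by Pdgfrb and Kcnj8, summed to 57.7 to 73.4 FPKM in Pdgfra-cre and 83.2 to 94.4 in controls. The 7 markers of other leukocytes, led by Lyz2 and Cd14, summed to 18.2 to 53.7 FPKM in Pdgfra-cre and 14.4 to 26.4 in controls, and Ptprc was at most 1.04 FPKM. The glial and neuronal list, which includes Gfap (summed, 6.99 to 10.3 FPKM in Pdgfra-cre, 5.97 to 15.1 in controls), and that of interstitial cells of Cajal led by Ano1 and Etv1 (summed, 14.4 to 19.6 FPKM in Pdgfra-cre, 14.0 to 20.1 in controls) overlapped. Their part in the ligand values was not tested.

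The rest of the BMP family and the receptors showed little difference. Of 15 other BMP and GDF ligand genes, 4 were tested and 5 were at 0 in all libraries. The most abundant were Gdf10, a ligand also called BMP3B, with 29.8 ± 3.45 FPKM in Pdgfra-cre and 27.0 ± 7.36 FPKM in controls, and the stress-induced Gdf15, with 13.5 ± 2.67 and 16.5 ± 3.52 FPKM in the same order (SD, n = 3 each). Gdf9, known for its role in the ovary, had 2.14 ± 0.826 FPKM in Pdgfra-cre and 3.38 ± 1.10 FPKM in controls and the lowest unadjusted p of the list (limma, adjusted p = 0.592). Of 12 receptors and co-receptors, 9 were tested, 4 with a log2 fold change above 0 and 5 below, and the median was -0.0091. The type I receptors Acvrl1 and Bmpr1a had 44.7 ± 6.78 and 37.8 ± 3.25 FPKM in Pdgfra-cre, against 44.6 ± 1.01 and 35.0 ± 7.42 FPKM in controls. The co-receptor endoglin, Eng, had 26.6 ± 3.76 FPKM in Pdgfra-cre and 26.3 ± 0.128 FPKM in controls. Neo1, a receptor for repulsive guidance molecules that also takes part in BMP signaling, was the 1 of the 9 whose groups did not overlap, with 8.58 ± 1.48 FPKM in Pdgfra-cre and 12.5 ± 1.15 FPKM in controls (limma, adjusted p = 0.343). Among all genes tested, 50.3% were above 0 and 49.7% below, and the groups did not overlap in 8.07% as higher and 8.29% as lower. Of the SMAD effectors, Smad1 had 26.7 ± 3.34 FPKM in Pdgfra-cre and 26.1 ± 2.64 FPKM in controls, and Smad5 had 10.6 ± 1.66 and 12.6 ± 1.03 FPKM in the same order, without overlap. Smad4 had 5.47, 12.3 and 22.0 FPKM in Pdgfra-cre libraries 13, 23 and 25, against 7.44, 4.60 and 6.57 FPKM in control libraries 8, 9 and 43, with overlap (limma, adjusted p = 0.514).

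Genes that BMP signaling switches on had values on both sides of the controls. Of 12 target and feedback genes, 10 were tested, 6 with a log2 fold change below 0 and 4 above, and the median was -0.35. Among all genes tested, 49.7% were below 0 and 50.3% above. The groups did not overlap in 4 lower genes (Id1, Id2, Id3 and Atoh8) and 2 higher ones (Smad7 and Bambi), against 8.29% of all genes tested as lower and 8.07% as higher. Id1, an inhibitor of basic helix-loop-helix factors, had 39.0, 28.0 and 37.3 FPKM in Pdgfra-cre libraries 13, 23 and 25, against 71.0, 53.2 and 94.6 FPKM in control libraries 8, 9 and 43. As for Bmp5 and Bmp7, library 23 was the lowest and control library 43 the highest. The log2 fold change of Id1 was -1.02 ± 0.21 (SE; limma, adjusted p = 0.161). Its relatives were more abundant and differed less: Id2 had 104 ± 4.51 FPKM in Pdgfra-cre and 140 ± 18.02 FPKM in controls, and Id3 had 1049 ± 65.3 and 1271 ± 113 FPKM in the same order (SD, n = 3 each). Atoh8, a transcription factor gene, had 2.94 ± 1.03 FPKM in Pdgfra-cre and 6.14 ± 0.339 FPKM in controls. The feedback inhibitor Smad7, which TGF-beta also induces, had 3.76 ± 0.126 FPKM in Pdgfra-cre and 2.66 ± 0.239 FPKM in controls. Bambi, a decoy receptor gene, had 13.4 ± 0.271 FPKM in Pdgfra-cre and 12.1 ± 1.26 FPKM in controls. Atoh8, Smad7 and Bambi were named after their values were seen, and none of the 10 passed the test.

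**Figure D4:**
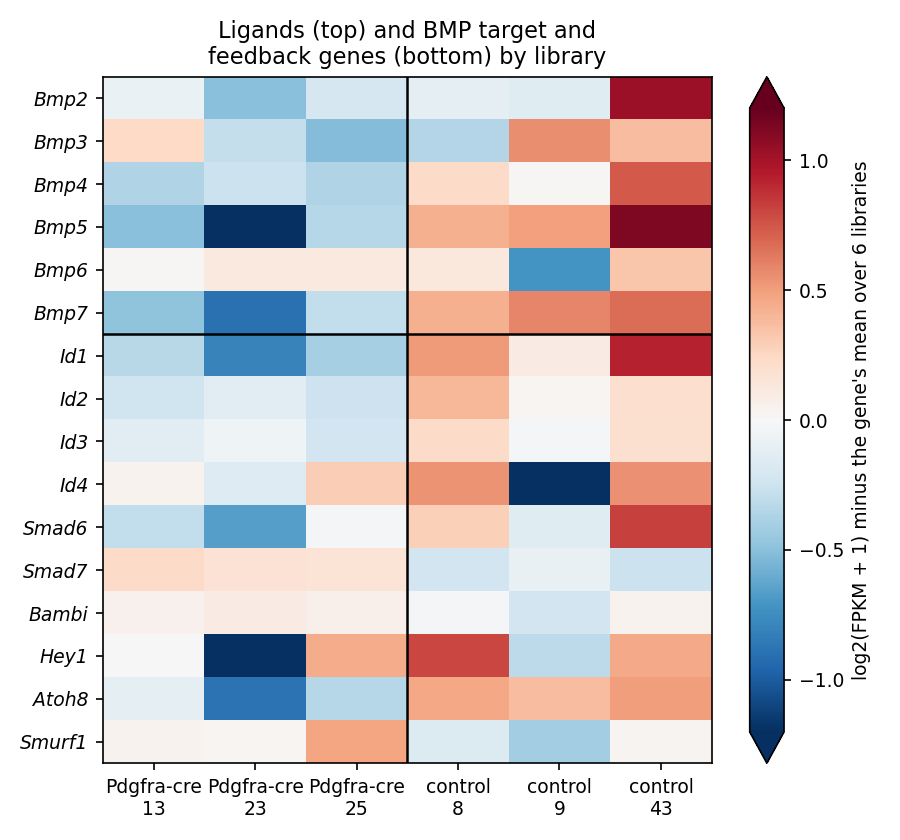
Colour gives log2(FPKM + 1) minus the gene's mean over the 6 libraries, for the 6 ligands (above the line) and the 10 tested BMP target and feedback genes (below it), with Pdgfra-cre libraries on the left and controls on the right. Bmp5, Bmp7, Id1 and Atoh8 are blue in all 3 Pdgfra-cre libraries and red in all 3 controls, while Smad7 shows the opposite pattern and Bmp6 stands out mainly in control library 9.

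Antagonists that bind BMPs outside the cell did not share a direction with the ligands. Of 18 antagonist genes, 13 were tested, 11 with a log2 fold change above 0 and 2 below, and the median was 0.16. Among all genes tested, 50.3% were above 0 and 49.7% below. The groups did not overlap in 1 higher gene, Chrd (18.03 ± 1.84 FPKM in Pdgfra-cre and 13.4 ± 2.96 FPKM in controls), and 1 lower gene, Twsg1. For all genes tested these shares were 8.07% as higher and 8.29% as lower, so 1 of 13 in either direction is near the background. Twsg1, whose product can both hold and release BMPs, had 128, 137 and 144 FPKM in Pdgfra-cre libraries 13, 23 and 25, against 171, 162 and 227 FPKM in control libraries 8, 9 and 43, and had the lowest unadjusted p of the list (limma, adjusted p = 0.284). The most abundant members were Fstl1, with 632 ± 64.2 FPKM in Pdgfra-cre and 540 ± 84.7 FPKM in controls, and Nbl1, with 364 ± 13.4 and 355 ± 47.1 FPKM in the same order. Gremlin 1 (Grem1), the main antagonist of crypt-base stroma, had 56.0, 134 and 102 FPKM in Pdgfra-cre libraries 13, 23 and 25, against 122, 89.2 and 68.0 FPKM in control libraries 8, 9 and 43, with wide overlap. Bmp4 over Grem1 ran from 1.27 to 2.82 in Pdgfra-cre and from 1.96 to 5.01 in controls, so this balance of ligand to antagonist overlapped too. Chrd and Grem1 were named after their values were seen.

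Of 7 genes for proteases that mature BMPs or clear their antagonists, 5 were tested, all 5 with a log2 fold change above 0, and 3 had groups that did not overlap (Bmp1, Furin and Pcsk7), all higher. Among all genes tested, 50.3% were above 0 and the groups did not overlap in 8.07% as higher. Bmp1, which despite its name encodes a metalloprotease that cleaves chordin and procollagen, had 121, 119 and 120 FPKM in Pdgfra-cre libraries 13, 23 and 25, against 89.2, 93.5 and 69.1 FPKM in control libraries 8, 9 and 43 (log2 fold change 0.52 ± 0.13 SE; limma, adjusted p = 0.202). Pcsk5, a proprotein convertase gene, had 124 ± 23.9 FPKM in Pdgfra-cre and 109 ± 15.2 FPKM in controls, and Pcsk6 had 15.7 ± 8.21 and 13.9 ± 3.28 FPKM in the same order (SD, n = 3 each). Furin, the convertase that cuts BMP precursors, had 4.77 ± 1.61 FPKM in Pdgfra-cre and 2.42 ± 0.499 FPKM in controls. Furin and Pcsk7 were named after their values were seen.

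Hedgehog signals from the epithelium and the forkhead factors FOXF1, FOXF2 and FOXL1 act upstream of stromal BMP genes. Of 10 genes in that list, all tested, 9 had a log2 fold change below 0 and 1 above, and the groups did not overlap in 6, all lower (Foxf1, Foxf2, Smo, Ptch1, Gli3 and Hhip). Foxf1 had 61.0, 80.0 and 68.4 FPKM in Pdgfra-cre libraries 13, 23 and 25, against 99.9, 82.2 and 121 FPKM in control libraries 8, 9 and 43. Foxf2 had 11.5 ± 3.35 FPKM in Pdgfra-cre and 21.2 ± 6.38 FPKM in controls, and the hedgehog transducer gene Smo had 19.7 ± 2.98 and 25.5 ± 0.547 FPKM in the same order (SD, n = 3 each). Hhip, a hedgehog target that binds the ligand, had 5.27 ± 2.43 FPKM in Pdgfra-cre and 11.3 ± 1.95 FPKM in controls (limma, adjusted p = 0.248), the lowest unadjusted p of the list. The median was -0.48, and none of the 10 passed. Ptch1 and Gli3 were named after their values were seen. Over all genes tested, 49.7% had a log2 fold change below 0, and the groups did not overlap in 8.29% as lower in Pdgfra-cre.

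**Figure D5:**
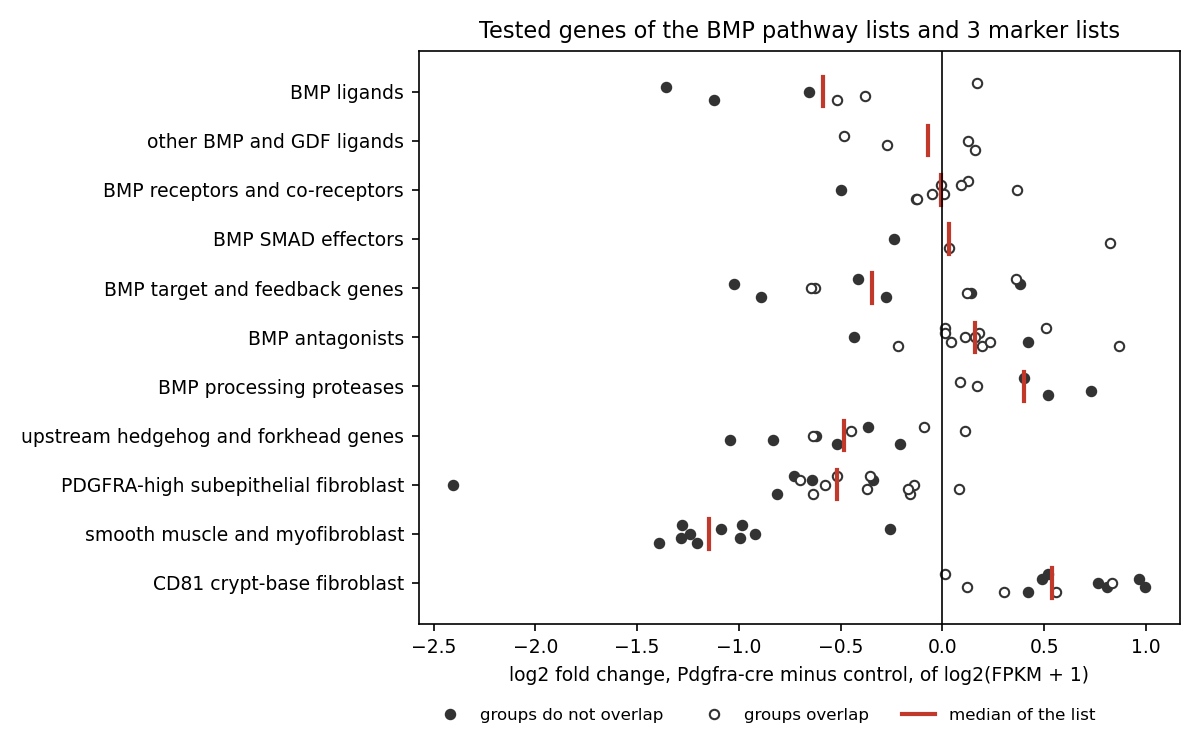
Log2 fold change (horizontal axis, Pdgfra-cre minus control, of log2(FPKM + 1)) of each tested gene in the BMP pathway lists and 3 marker lists; filled points are genes whose groups do not overlap, and red lines are list medians. The ligand median is -0.59 and that of smooth muscle and myofibroblast markers -1.15, while the receptor median is near 0 and those of antagonists, proteases and CD81 fibroblast markers are above 0.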

How the data were processed

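Gene-level FPKM values were deposited by the authors, 1 table per library. Full-length cDNA was amplified and tagmented, per the labels' protocols, so the strand of a fragment is lost. The submitters' processing notes give the build as mm10 and the tools as TopHat2 2.1.1, Bowtie2 2.2.8, SAMtools 0.1.18 and Cuffdiff 2.2.1. The annotation, the options and the read totals are not given in the sources used here. The peak of low FPKM values gives only a rough depth, and no counting interval is printed.

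Genes with at least 1 FPKM in at least 3 libraries (11429 of 24346) were tested on log2(FPKM + 1) with limma 3.58.1 in R 4.3.3, using a variance trend and Benjamini-Hochberg adjustment over all genes, with a threshold of 0.05. Fold changes on this scale understate those of low genes. The procedure was tested on simulated data. The members and the gene lists were chosen with earlier results of these data known, and list counts are descriptions. Named in each pathway list were the 3 most abundant genes and the one with the lowest unadjusted p, in each marker list the 2 most abundant (of which some are not reported here), and any others are marked as chosen afterwards. Likeness was the root mean square difference of centred profiles, and the 3 nearest genes were named. Promoters were taken from RefSeq. Alternatives covered the pseudocount (0.1 or 5), the filter (none, or 5 FPKM), the scaling (median of ratios, quantiles or TPM), the prior (robust, or without its trend), weights per library, and leaving out each library with the genes filtered on all 6. The series' design text gives 3 mice per genotype, and no 2 tables were identical.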

Additional observations from a re-analysis of the deposited data

How the results depend on the processing

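Of 96 ligand fold changes recomputed under 16 alternatives, 95 kept their direction. The reversed one was Bmp6 without control library 9 (-0.14), and its range with 1 library left out was -0.14 to 0.38. Bmp7 passed the threshold only without Pdgfra-cre library 25, and its range was -1.25 to -0.95 with 1 library left out. The count of ligands past the threshold was then 0 to 1, and that of all genes was 0 to 33, with 33 without Pdgfra-cre library 25, 3 without Pdgfra-cre library 13 and 2 without control library 43. In these, the filter was set on all 6 libraries, a choice made after both versions had been seen. Filtered on the remaining libraries, 0 to 31 genes passed, and Bmp7 without Pdgfra-cre library 25 had an adjusted p of 0.0497 (limma), against 0.0463. With all 6 libraries, no alternative brought a ligand past the threshold; the lowest adjusted p was 0.0711 (Bmp7, robust prior). The adjusted p of Bmp7 ran up to 0.373 under those alternatives, that of Bmp5 from 0.103 to 0.377 and that of Bmp4 from 0.155 to 0.439. The median of all genes was -0.090 with rescaling to TPM, against 0.0012 as deposited, and no other scaling shifted it more. Of 112 pathway list medians, 111 moved by less than the spread between libraries; that of the hedgehog and forkhead list was -0.26 with a pseudocount of 5. The count of ligands lower in Pdgfra-cre with groups that do not overlap was 4 without Pdgfra-cre library 13 (13.1% of all genes), control library 8 (12.5%) or control library 9 (14%), and 3 without Pdgfra-cre library 23 (12.6%), Pdgfra-cre library 25 (14.5%) or control library 43 (12.9%), an alternative added after the data were seen, as were the ratios to Pdgfra and to marker sums. With 3 libraries a group and no read totals, small differences in Bmp2, Bmp3 and Bmp6 could not be resolved. No paired analysis was possible because the labels give no pairing, litter or processing day.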
